A study of Mus musculus with 6 samples.

Results

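Genes of cholesterol synthesis were followed in tumours that KLN205, a squamous lung carcinoma line of mouse origin, formed under the skin of mice. The 8 genes were chosen by symbol: Hmgcs1, Sqle, Idi1, Fdps, Fdft1, Lss, Cyp51 and Insig1. Each had 1 row of its own among the 21154 genes measured. Of these genes 7 encode enzymes of the synthesis pathway and Insig1 encodes a sterol sensor. None encodes an uptake receptor, so uptake genes are given separately as a list.

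The study set 3 tumours treated with anti-PD-1, an antibody that blocks a receptor restraining T cells, beside 3 control tumours, each read on its own 1-colour Clariom S Mouse array. Both groups began from 1000000 KLN205 cells in 50 µL of medium and 100 µL of Matrigel under the skin of the left flank. The treatment protocol gives 250 µg of anti-PD-1 or of an IgG2a isotype antibody into the peritoneum once per 3 days, while the sample labels call the controls untreated with anti-PD-1. The series text writes of cells that survived 7 days after treatment, but the samples are labelled as tumour tissue, which also holds host cells. Strain, sex and age of the mice are not given in the sources used here. Nothing in the labels says whether the tumours came from separate animals, so p-values measure the spread between these 3 samples per group, which may be technical.

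Cells build cholesterol from acetyl units. Hmgcs1 and the enzymes after it make mevalonate and then isoprenoid units, Fdft1 joins them into squalene, Sqle and Lss turn squalene into the first sterol, and Cyp51 opens the series of steps that trim that sterol to cholesterol. When membranes run low in sterol, SREBP-2, the product of Srebf2, moves to the nucleus and switches these genes on together. Insig1 holds the SREBP carrier Scap in the endoplasmic reticulum when sterol is plentiful, and is itself an SREBP target. Dividing epithelial cells, skin and sebaceous gland are known for high activity of the pathway.

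Values are log2 signals as deposited, so that a difference of 1 is a doubling, and each difference is anti-PD-1 minus control. Signals of different genes come from different probes and are not set against each other. Median signals of the 6 arrays lay between 7.04 and 7.13. Control replicate 3 stood apart, with Pearson correlations across genes of 0.907 to 0.936 with the other arrays, which correlated with each other between 0.973 and 0.987. It had the highest signal for 9 of 10 adipocyte markers and the lowest for 8 of 9 basal squamous markers. Differences of the 8 genes, medians of the pathway lists and differences of most other named genes are therefore also given without it. The basal keratin gene Krt5 was called expressed in both groups in the authors' deposited table and read between 11 and 18.15. At an adjusted p under 0.05 over all 21154 genes by limma, 1 gene passed, namely Stfa1, which encodes a stefin protease inhibitor and is not a cholesterol gene (0.00473% of genes).

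Sqle, Fdps and Fdft1 read higher in all 3 anti-PD-1 tumours than in any control tumour, but no cholesterol gene passed the adjusted threshold. Their fold differences lay between 2.54 and 4.99. Of the 8 genes, 7 had a higher mean in anti-PD-1 tumours, as did 51.7% of all genes, and 1 a lower mean, as did 48.3%, and the median difference was 1.15 against 0.02 over all genes. At an unadjusted p under 0.05 by limma 3 of the 8 genes were higher, where 5.18% of all genes were, and 0 were lower, where 4.52% were. Groups did not overlap, with anti-PD-1 higher, for the same 3 genes, as for 8.82% of all genes, and for 0 with anti-PD-1 lower, as for 7.76%. Without control replicate 3 the anti-PD-1 mean was the higher for all 8 genes, the median difference was 0.82, and 3 genes again had an unadjusted p under 0.05 (4.05% of all genes). In that fit 0 of the 8 were lower at the same threshold (4.57% of all genes), and 0 passed the adjusted threshold (0.0189% of all genes).

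The plot of the 8 genes on each array shows these values.

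**Figure D1:**
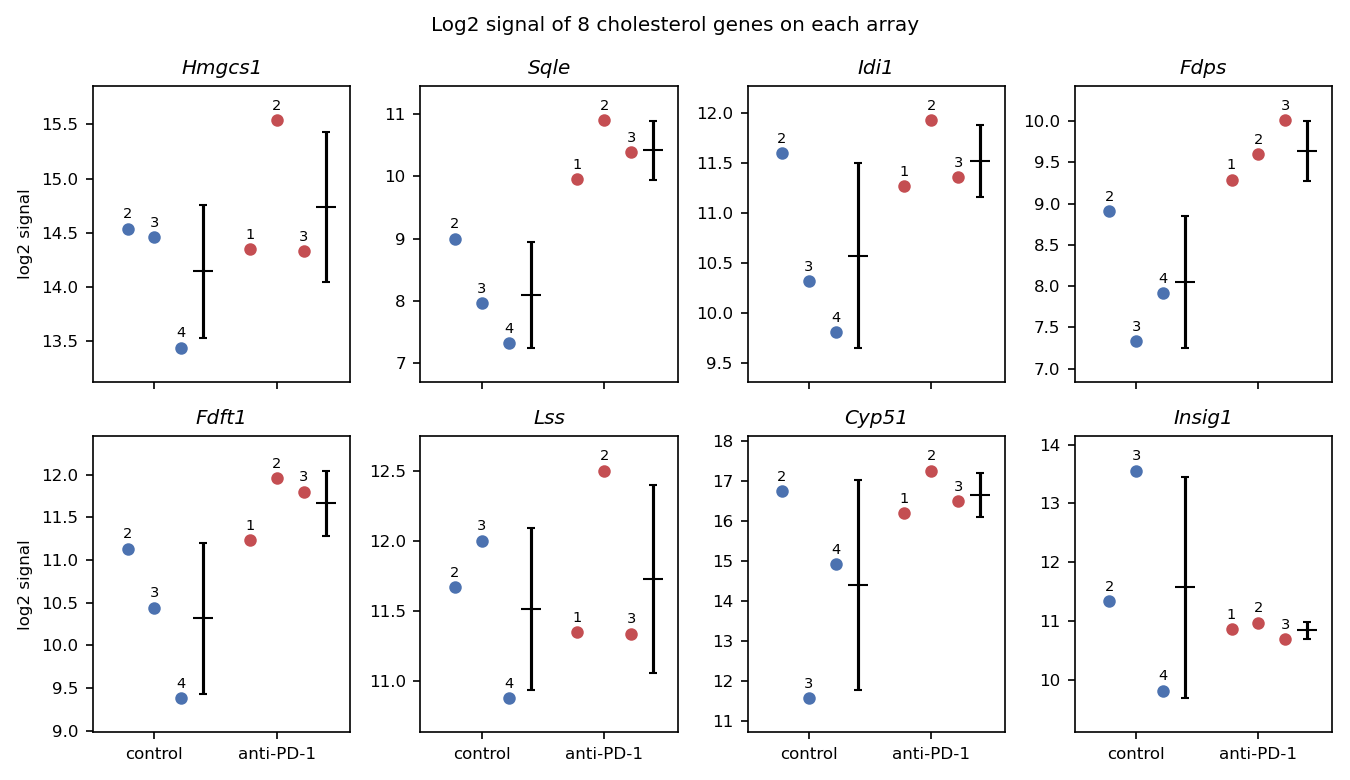
Log2 signal (vertical axis, a scale of its own for each gene) of the 8 cholesterol genes on the 3 control arrays (blue) and 3 anti-PD-1 arrays (red), with replicate numbers beside the points and the group mean ± SD as a black bar. Sqle, Fdps and Fdft1 are the genes whose groups do not overlap, and control replicate 3 is far below the other arrays for Cyp51 and far above them for Insig1.

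Hmgcs1, which makes HMG-CoA at the start of the mevalonate steps (chromosome 13, 119690446 to 119708086, mm10, plus strand), read 14.54, 14.46 and 13.44 in control replicates 2, 3 and 4. In anti-PD-1 replicates 1, 2 and 3 it read 14.35, 15.54 and 14.33. The groups overlapped: a pair of anti-PD-1 arrays lay below control replicates 2 and 3, and anti-PD-1 replicate 2 alone lay above them. The difference was 0.59 ± 0.45 (SE), with a 95% interval of -0.47 to 1.66. Leaving out control replicate 3 gave 0.75. The difference was 0.19 without anti-PD-1 replicate 2 and 0.24 without control replicate 4.

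Idi1, which converts isopentenyl diphosphate into the isomer that primes chain growth (chromosome 13, 8885501 to 8892451, plus strand), read 11.60, 10.32 and 9.81 in control tumours. It read 11.27, 11.93 and 11.36 in anti-PD-1 tumours. Control replicate 2 stood among the anti-PD-1 arrays, and the other controls lay below all of them. The difference was 0.94 ± 0.47 (SE), with a 95% interval of -0.18 to 2.07 and an unadjusted p of 0.0873 by limma. Without control replicate 2 it was 1.46, with an unadjusted p of 0.00394, and it was 0.815 without control replicate 3 and 0.56 without control replicate 4. In the other fits that left out 1 array the unadjusted limma p was 0.114 to 0.259.

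Fdps, the farnesyl diphosphate synthase at the branch point of sterols and prenyl groups (chromosome 3, 89093588 to 89101967, minus strand), read 8.91, 7.33 and 7.91 in control tumours. It read 9.29, 9.60 and 10.01 in anti-PD-1 tumours. All anti-PD-1 values lay above the controls, with control replicate 2 nearest. The means were 8.05 ± 0.80 and 9.63 ± 0.36 (SD, n = 3 each), a difference of 1.58 ± 0.43 (SE) or 2.997-fold. The limma p was 0.00796 unadjusted and 0.506 adjusted. The unadjusted p stayed under 0.05 in each fit that left out 1 array, with differences from 1.22 to 2.01.

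Fdft1, the squalene synthase that commits farnesyl units to sterols (chromosome 14, 63145150 to 63180967, minus strand), read 11.13, 10.44 and 9.38 in control tumours. It read 11.23, 11.96 and 11.80 in anti-PD-1 tumours. The groups were set apart by only 0.10, between control replicate 2 and anti-PD-1 replicate 1. The means were 10.32 ± 0.88 and 11.66 ± 0.38 (SD, n = 3 each), a difference of 1.35 ± 0.46 (SE) or 2.54-fold, with a limma p of 0.0231 unadjusted and 0.506 adjusted. Leaving out anti-PD-1 replicate 2 gave an unadjusted p of 0.0759 and leaving out replicate 3 gave 0.0666, and the difference was 1.41 without control replicate 3 and 0.88 without control replicate 4.

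Sqle, the squalene epoxidase that makes the first oxygen-dependent and a rate-limiting step (chromosome 15, 59315077 to 59331193, plus strand), had the largest difference of the 8 genes. It read 9.0, 7.96 and 7.32 in control tumours. It read 9.95, 10.90 and 10.39 in anti-PD-1 tumours. A gap of 0.95 separated the groups. The means were 8.09 ± 0.85 and 10.41 ± 0.48 (SD, n = 3 each), a difference of 2.32 ± 0.47 (SE) or 4.99-fold, with a 95% interval of 1.21 to 3.43. The limma p was 0.00173 unadjusted and 0.506 adjusted, and the adjusted p ran from 0.149 to 0.915 over all alternatives. Leaving out single arrays kept the difference between 1.93 and 2.77, and it was 2.25 without control replicate 3.

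Lss, the cyclase that folds oxidised squalene into lanosterol directly after Sqle (chromosome 10, 76531588 to 76557138, plus strand), read 11.67, 12 and 10.88 in control tumours. It read 11.35, 12.50 and 11.34 in anti-PD-1 tumours. The groups overlapped, and a pair of control arrays lay above a pair of anti-PD-1 arrays. The difference was 0.21 ± 0.43 (SE), with a 95% interval of -0.81 to 1.23. It was 0.455 without control replicate 3, and its sign turned to -0.17 without anti-PD-1 replicate 2 and to -0.105 without control replicate 4.

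Cyp51, the lanosterol demethylase (chromosome 5, 4080674 to 4104746, minus strand), read 16.74, 11.56 and 14.92 in control tumours. It read 16.19, 17.26 and 16.49 in anti-PD-1 tumours. Control replicate 3 lay 4.27 below the mean of the other controls, and control replicate 2 lay inside the anti-PD-1 range. The difference of 2.24 ± 1.20 (SE) had a 95% interval of -0.62 to 5.10. It was 0.82 without control replicate 3, so that 1 array held most of it, and 3.41 without control replicate 2, with an unadjusted p of 0.0136 by limma. The unadjusted limma p was 0.106 with all arrays and 0.134 to 0.236 in the other fits that left out 1 array.

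Insig1, the sterol-dependent anchor of Scap (chromosome 5, 28071363 to 28078662, plus strand), read 11.34, 13.56 and 9.81 in control tumours. It read 10.86, 10.97 and 10.69 in anti-PD-1 tumours. The anti-PD-1 values lay close together and inside the span of the controls, where control replicate 3 lay 2.99 above the mean of the others. The difference was -0.73 ± 0.86 (SE), with a 95% interval of -2.77 to 1.31. It turned to 0.265 without control replicate 3 and was -1.61 without control replicate 4, with an unadjusted p of 0.0459 by limma. The unadjusted limma p was 0.423 with all arrays and 0.445 to 0.557 in the other fits that left out 1 array. With all arrays used, Insig1 was the only gene of the 8 whose mean was lower in anti-PD-1 tumours.

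Some arrays kept a similar place across most of the 8 genes, but control replicate 3 did not. It was the highest control for 2 genes and the lowest for 2. Within the controls, replicate 2 was highest for 6 of the 8 genes and replicate 4 lowest for 6. Within the anti-PD-1 tumours, replicate 2 was highest for 7 of the 8, all but Fdps. A score per array, the median of the 8 log2 signals after centring every gene on its own mean, was 0.12, -0.64 and -1.12 in control replicates 2, 3 and 4. It was 0.23, 0.93 and 0.56 in anti-PD-1 replicates 1, 2 and 3. The groups did not overlap in this score, and control replicate 2 lay close below anti-PD-1 replicate 1.

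The authors' deposited table gives another direction for Hmgcs1 and Lss. In it Hmgcs1 has a control average of 14.5 and an anti-PD-1 average of 14.34, and Lss has 11.61 and 11.34. For Hmgcs1 the deposited control average lies between the readings of replicates 2 and 3 and the anti-PD-1 average between those of replicates 3 and 1, whereas plain means also take in the far array of each group. No source used here states the rule behind these averages. For Sqle, Fdps and Fdft1 the authors' deposited table lists control below anti-PD-1 by 5.13-fold, 3.08-fold and 2.7-fold, with an FDR of 0.509 for each.

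The upstream sequence of Hmgcs1 is shown because it matched the core string of the sterol regulatory element searched for here. Those of Cyp51 and Insig1 are shown because control replicate 3 moved these genes furthest and in opposite directions. The RefSeq promoter table (GRCm38.p6) held 5 of the 8 genes, namely Hmgcs1, Idi1, Lss, Cyp51 and Insig1. Each window is the 250 bases before the start in the RefSeq table, which differs from the start in the array annotation. The Cyp51 and Insig1 windows therefore reach into the gene positions given above, and that of Hmgcs1 does not. Both strands were searched for TCACNCCAC, a core of the sterol regulatory element bound by SREBP, for CCAAT, the box bound by NF-Y, and for GGGCGG, the box bound by Sp1. SREBP is known to act at promoters together with NF-Y or Sp1. Capitals mark every match, and no match overlapped one of another motif.
Hmgcs1 (chr13:119690101-119690350, plus strand): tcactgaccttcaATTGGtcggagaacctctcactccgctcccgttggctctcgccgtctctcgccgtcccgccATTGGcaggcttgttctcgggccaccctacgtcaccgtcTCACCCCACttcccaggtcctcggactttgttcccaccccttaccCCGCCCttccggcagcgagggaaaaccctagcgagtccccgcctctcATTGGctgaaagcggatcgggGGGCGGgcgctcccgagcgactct
Cyp51 (chr5:4104698-4104947, minus strand): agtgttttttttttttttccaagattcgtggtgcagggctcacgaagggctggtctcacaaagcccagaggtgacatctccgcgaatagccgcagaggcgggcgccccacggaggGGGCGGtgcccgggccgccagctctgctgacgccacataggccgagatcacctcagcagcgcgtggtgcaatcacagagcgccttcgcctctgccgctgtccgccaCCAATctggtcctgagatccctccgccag
Insig1 (chr5:28071162-28071411, plus strand): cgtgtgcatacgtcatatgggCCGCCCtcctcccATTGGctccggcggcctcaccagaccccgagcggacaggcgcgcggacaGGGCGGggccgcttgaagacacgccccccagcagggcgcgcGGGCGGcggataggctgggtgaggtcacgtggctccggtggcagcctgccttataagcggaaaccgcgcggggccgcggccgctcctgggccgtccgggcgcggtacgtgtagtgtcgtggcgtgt

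The Hmgcs1 window held TCACNCCAC once, from 137 to 129 bases before the start, with 3 CCAAT and 2 GGGCGG matches around it. Of the 5 windows 1 held TCACNCCAC, and of all 32851 windows searched 1.05% did. All 5 held CCAAT, which 33.8% of windows held, and all 5 held GGGCGG, which 32.7% held. Other forms of the sterol regulatory element were not searched for, so a window without TCACNCCAC is not shown to lack one. The letters found describe these windows and are not evidence of binding.

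The wider synthesis pathway was read from a list of 21 enzyme genes, 20 of which had a row of their own. The other, Tm7sf2, a sterol reductase gene, shared its row with Vps51, and that row differed by -0.21 ± 0.27 (SE) and is not in the counts. The anti-PD-1 mean was the higher for 17 of them, as for 51.7% of all genes, the median difference being 0.75, and the 13 that lie outside the 8 genes had a median of 0.65, with 10 higher. At an unadjusted p under 0.05, 6 of the 20 were higher and 0 lower by limma, beside 5.18% and 4.52% of all genes, and none passed the adjusted threshold. The 3 lower genes, named after their values were seen, were Acat2, Pmvk and Sc5d, at -0.15, -0.19 and -0.19. Without control replicate 3 all 20 were higher, with a median of 0.63, and 7 were higher at an unadjusted p under 0.05, beside 4.05% of all genes.

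The mevalonate steps had a median difference of 0.63 and the squalene and sterol steps one of 1.09, but without control replicate 3 the medians were 0.61 and 0.69. The contrast between them was not tested. Among the 8 mevalonate genes 6 were higher, as were 51.7% of all genes. Only Fdps was higher at an unadjusted p under 0.05 by limma, beside 5.18% of all genes, and 0 were lower, beside 4.52%. Mvk, the mevalonate kinase, read 6.33, 5.42 and 6.63 in control tumours and 6.96, 7.68 and 6.39 in anti-PD-1 tumours. Its groups overlapped through anti-PD-1 replicate 3, and the difference was 0.88 ± 0.44 (SE), or 0.53 without control replicate 3.

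Among the 12 squalene and sterol genes 11 were higher, as were 51.7% of all genes. Hsd17b7, a ketoreductase of sterol demethylation, read 10.12, 9.22 and 8.90 in control tumours and 10.62, 11.46 and 10.83 in anti-PD-1 tumours. Its groups did not overlap, and the difference was 1.56 ± 0.38 (SE), or 1.46 without control replicate 3, with a limma p of 0.00514 unadjusted and 0.506 adjusted. Msmo1, the sterol C4-methyl oxidase that acts after Cyp51, read 8.94, 5.69 and 7.77 in control tumours and 9.57, 10.30 and 9.36 in anti-PD-1 tumours. Its groups did not overlap either, and its difference of 2.28 ± 0.78 (SE) was 1.39 without control replicate 3, the lowest array. Ebp, the sterol isomerase, read 10.55, 10.18 and 10.33 in control tumours and 11.08, 10.91 and 11.03 in anti-PD-1 tumours. That difference, 0.65 ± 0.20 (SE) or 0.57 without control replicate 3, was small beside those of Sqle and Msmo1, but the arrays within each group lay close together. Nsdhl, which removes the C4 carboxyl group, differed by 0.83 ± 0.39 (SE), or 1.1 without that array, and its groups were set apart by 0.03. The plot of differences along the pathway shows the order of the steps.

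**Figure D2:**
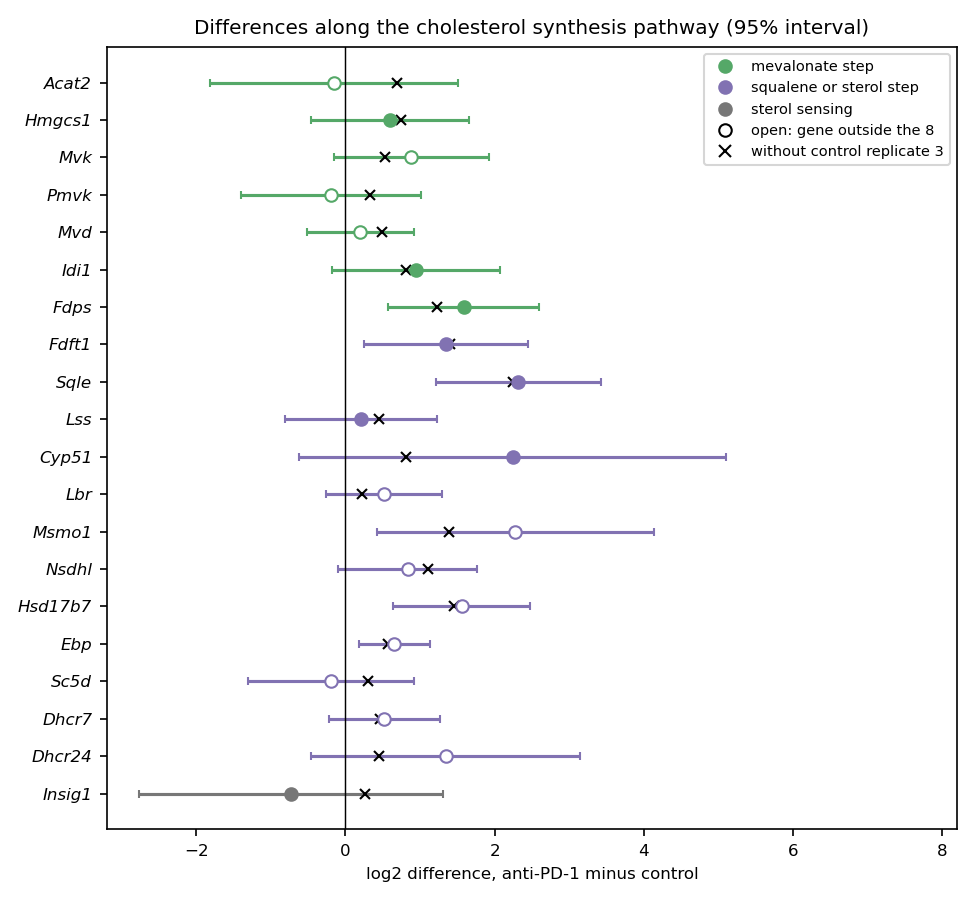
Log2 difference, anti-PD-1 minus control (horizontal axis), of measured synthesis genes in pathway order and of Insig1, with 95% limma intervals. Filled points are the 8 cholesterol genes, open points the others, and crosses the differences without control replicate 3, which lie at or right of 0.23 for each synthesis gene drawn.

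Sterol sensing genes had a median difference of -0.02 over 11 genes, or -0.13 without control replicate 3. With all arrays 5 were higher and 6 lower, beside 51.7% and 48.3% of all genes. At an unadjusted p under 0.05 by limma 1 was higher and 0 lower, beside 5.18% and 4.52% of all genes. Insig2, the relative of Insig1 that is not an SREBP target in most cells, read 7.79, 7.5 and 8.17 in control tumours and 8.43, 8.89 and 8.41 in anti-PD-1 tumours. Its groups did not overlap, in contrast to those of Insig1, and it differed by 0.76 ± 0.26 (SE), or 0.60 without control replicate 3, with a limma p of 0.0238 unadjusted and 0.506 adjusted. Srebf2 differed by 0.35 ± 0.22 (SE), or 0.26 without that array, its groups set apart by 0.01. Erlin2 went the other way without overlap, at -0.27 ± 0.19 (SE), or -0.30 without that array. Thus groups did not overlap for 2 of the 11 with anti-PD-1 higher and 1 with it lower, beside 8.82% and 7.76% of all genes. Srebf1, which encodes the SREBP-1 form tied to fatty acid synthesis, shared its row with the microRNA gene Mir6922 and is not in the count. That row read 8.36, 10.27 and 8.85 in control tumours and 8.53, 8.28 and 8.38 in anti-PD-1 tumours, with control replicate 3 highest.

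Uptake and trafficking genes were divided, with 7 of 11 higher, beside 51.7% of all genes. Their median was 0.14, or 0.027 without control replicate 3. Stard4, a sterol carrier, and Tmem97, a regulator of NPC1, differed by 1.05 ± 0.48 and 0.88 ± 0.37 (SE), or 0.72 and 0.80 without that array. Lrp8, a lipoprotein receptor gene, differed by 1.84 ± 0.98 (SE), or 0.79 without control replicate 3, where it read 4.27. Vldlr, the receptor for triglyceride-rich particles, went the other way and read 8.35, 10.96 and 8.2 in control tumours and 7.5, 7.79 and 6.94 in anti-PD-1 tumours. Its groups did not overlap, and the difference of -1.76 ± 0.74 (SE) was -0.865 without control replicate 3. Mylip, a ubiquitin ligase gene, differed by -1.23 ± 0.70 (SE), or -0.56 without control replicate 3, its highest array. At an unadjusted p under 0.05 by limma, 1 of the 11 genes was higher, Tmem97, and 1 lower, Vldlr, beside 5.18% and 4.52% of all genes.

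Efflux, storage and LXR genes, which act when sterol is in excess, had 7 of 12 higher, beside 51.7% of all genes, and a median of 0.09. That median was -0.29 without control replicate 3, with 3 of 12 higher, beside 11013 of all 21154 genes. Abca1, the cholesterol exporter, differed by -1.17 ± 0.57 (SE), Apoe by -0.82 ± 0.40 and Nr1h3, which encodes the sterol receptor LXR alpha, by -0.81 ± 0.38. Without control replicate 3 these were -0.745, -0.80 and -0.51. No gene of the list had an unadjusted p under 0.05 by limma, where 5.18% of all genes were higher and 4.52% lower. Each of these 3 overlapped between groups. All 3 are also expressed by macrophages, and 6 of 7 macrophage markers also had the lower mean under anti-PD-1, as did 48.3% of all genes. The median difference of these markers was -0.74. Their score was highest in control replicate 4, at 0.84, and was -0.08 in control replicate 3. Apoe was also highest in control replicate 4. Abca1 and Nr1h3 were highest in control replicate 3, where the adipocyte score was highest too, at 5.28. The part of macrophages or adipocytes in the values was not tested.

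Most fatty acid genes driven by SREBP-1 differed in the opposite direction to the cholesterol genes. For all 12 genes with a row of their own the anti-PD-1 mean was the lower, as for 48.3% of all genes. The median difference was -2.06, and each of the 12 had its highest signal in control replicate 3. Scd2, a desaturase gene that shared its row with Mir5114 and is not in the count, went the other way at 0.20 ± 0.20 (SE), with its lowest signal, 15.98, in control replicate 3. The score of the 12 genes was 3.72 in that array and between -1.41 and -0.14 in the others. Adipocyte markers moved with it, since 9 of 10 were also lower under anti-PD-1 and their score was 5.28 in control replicate 3 and between -2.76 and 0.99 in the others. Their part in these values was not tested. Fasn, the fatty acid synthase, read 12.96, 17.76 and 11.16 in control tumours and 11.52, 11.76 and 11.25 in anti-PD-1 tumours. Acaca, which makes malonyl-CoA for it, read 11.22, 16.29 and 9.90 against 9.85, 10.34 and 10.16. Without control replicate 3 the list median was -0.39 and 2 genes had a higher mean, namely Acly at 0.045 and Elovl6 at 0.21, both picked after their values were seen. Fads1, a desaturase, was the only gene of the list whose groups did not overlap, with anti-PD-1 lower, as for 7.76% of all genes. It read 9.80, 12.28 and 9.80 in control tumours and 8.40, 9.07 and 8.48 in anti-PD-1 tumours. It differed by -1.98 ± 0.68 (SE), or -1.15 without control replicate 3, with an unadjusted limma p of 0.0232. Scd1, the stearoyl desaturase, differed by -2.37 ± 1.01 (SE), or -1.43 without that array, and its groups overlapped. The plot with and without control replicate 3 sets both branches side by side.

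**Figure D3:**
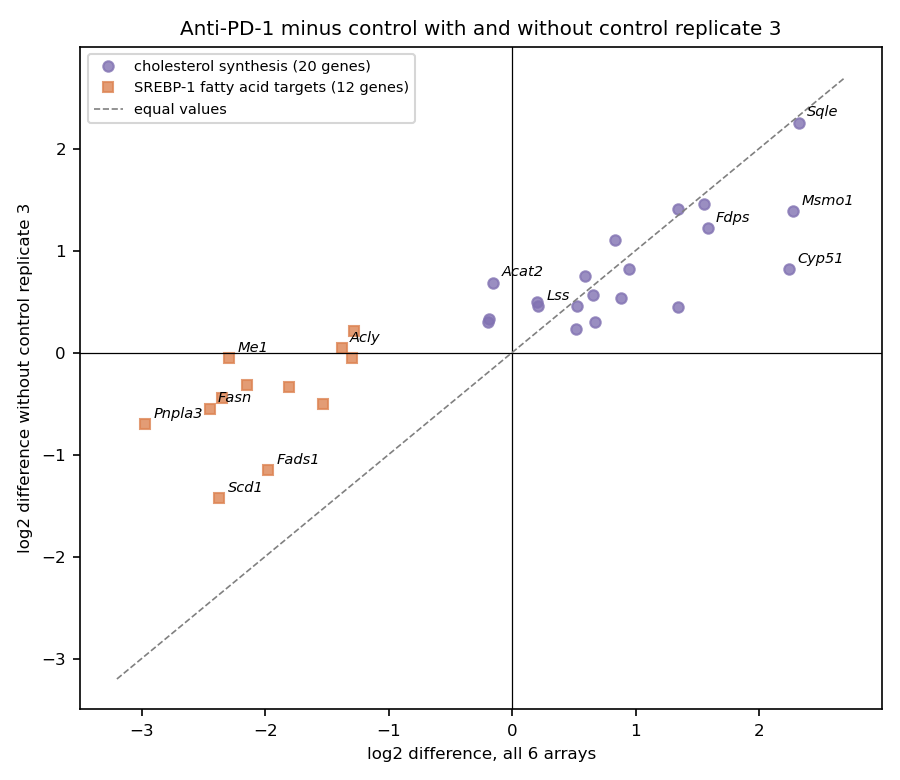
Log2 difference, anti-PD-1 minus control, from all 6 arrays (horizontal axis) and without control replicate 3 (vertical axis) for 20 cholesterol synthesis genes (circles) and 12 SREBP-1 fatty acid targets with a row of their own (squares), with the dashed line marking equal values. Sqle stays near the line at 2.32 and 2.25, while the fatty acid genes lie above it, with a median that goes from -2.06 to -0.39.

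Scores of squamous markers and of cell division genes also stood higher in anti-PD-1 tumours. All 9 basal squamous markers had a higher mean in anti-PD-1 tumours, and their score was 0.605, -4.24 and -1.48 in control replicates 2, 3 and 4 and 1.17, 2.15 and 0.86 in anti-PD-1 replicates 1, 2 and 3. All 8 cell division genes were higher too, with a score of 0.54, -2.13 and -0.90 in control and 0.70, 1.02 and 0.75 in anti-PD-1 tumours. Like the cholesterol score, both were highest in anti-PD-1 replicate 2 and had control replicate 2 as the highest control. Suprabasal squamous markers, 8 of 8 with a higher mean, scored -1.80, -4.31 and 0.76 in control and 1.405, 3.03 and 1.34 in anti-PD-1 tumours. Their highest control was replicate 4, the lowest array for the cholesterol genes, and control replicate 2 lay below it. The basal squamous and cell division scores were lowest in control replicate 3, and that of the cholesterol genes in control replicate 4. In bulk tumour RNA, fewer cells of a type and less RNA per cell cannot be told apart, and the part of squamous or dividing cells in the cholesterol values was not tested.

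Adipocyte markers ran the other way, with 9 of 10 lower in anti-PD-1 tumours and a score of 0.99, 5.28 and -1.86 in control and -1.03, -0.83 and -2.76 in anti-PD-1 tumours. None of these 10 markers was called not expressed in either group in the authors' deposited table. Mammary markers scored 3.38 and 5.07 in control replicates 2 and 3 and between -2.61 and -1.79 in the other arrays. Sebaceous gland markers, 9 of 9 with a higher mean, scored -1.57, -1.65 and 0.54 in control and 0.55, 2.24 and 0.005 in anti-PD-1 tumours. Their highest array was again anti-PD-1 replicate 2, but control replicate 4, the lowest for the cholesterol genes, overlapped the anti-PD-1 arrays. Of the 9 sebaceous markers 2, Awat1 and Dgat2l6, were not called expressed in control tumours. Soat1 is also in the efflux list, and without control replicate 3 it differed by -0.21, while 8 of the 9 were higher. The part of these cells was not tested.

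**Figure D4:**
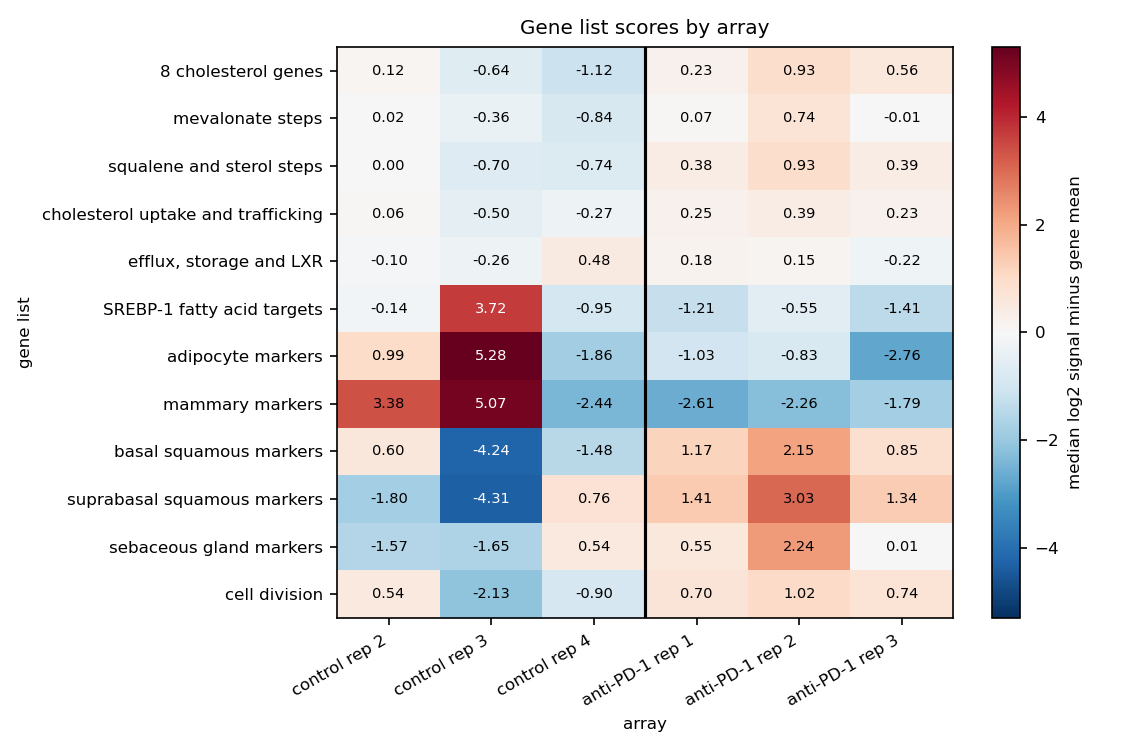
Score of 12 gene lists (rows) on each array (columns), each the median of its genes' log2 signals after centring every gene on its mean over 6 arrays, in log2 units, with the black line between control and anti-PD-1 arrays. The scores of the 8 cholesterol genes run from -1.12 to 0.93, while control replicate 3 reaches 5.28 for adipocyte markers and -4.31 for suprabasal squamous markers.

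Among genes outside all of the lists, those closest to the median profile of the 8 cholesterol genes were taken by the root mean square difference of centred log2 signals over the 6 arrays. They were Asns, the asparagine synthetase, Smad5, a mediator of BMP signals, Stom, a membrane protein gene, Aire, a transcription factor gene of the thymus, and Mst1r, a receptor tyrosine kinase gene, with differences of 0.18 to 0.22. The median over all genes was 0.76. Among the 8 genes themselves Idi1 (0.21) and Fdft1 (0.23) lay closest to that profile, and Insig1 (1.41) and Cyp51 (1.502) farthest. Asns read 12.48, 11.73 and 10.87 in control and 12.15, 12.99 and 12.62 in anti-PD-1 tumours, with overlap. Smad5 and Mst1r did not overlap between groups and differed by 1.12 and 1.45, with an adjusted p of 0.506 each by limma. With 6 arrays that share control replicate 3 and the group contrast, such likeness is a description only.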

How the data were processed

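Total RNA (250 ng per sample) of 3 control and 3 anti-PD-1 tumours was biotin-labelled and hybridised to Clariom S Mouse arrays. The authors deposited 1 log2 signal for each transcript cluster and array, computed by gene-level SST-RMA on mm10 annotation, per the file headers. The Transcriptome Analysis Console is the tool listed, without a version, per the submitters' processing notes. The authors' deposited table also gives group averages, a standard deviation of the signal per group, expression calls, and fold changes written as a signed score that is negative where the control average is the lower one. The p-value and FDR columns are also the authors', per the file headers. The sources used here do not name that test. Another deposited table of the signals was compared, and 0 values differed. Background correction was not varied because scanner output was not analysed here, and precision is limited by 3 arrays per group.

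Groups and columns were taken from sample titles. Of 22206 clusters, 836 with several names and 3 without one were left out. For 132 genes the cluster with the highest mean was kept, which left 21154 genes, with no filter on dim signals. The group difference was fitted per gene with limma 3.58.1 (lmFit, eBayes) under R 4.3.3. Its two-sided p-values were adjusted by Benjamini-Hochberg across the 21154 genes, and 0.05 was the threshold. Intervals are 95% intervals of that fit. The fit was tested on simulated data. Promoter windows came from a RefSeq table of GRCm38.p6.

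The 8 genes, the 7 pathway lists and the 9 marker lists were chosen with earlier results of these data known. Named genes were the 8, up to 6 genes per pathway list by smallest unadjusted p, the 5 genes closest to the median profile, and those marked as picked later. Alternatives were quantile normalization, median centring, only clusters called expressed, a trended robust variance prior, array weights, clusters with several names, means over clusters, the second table, the replicate number as a block, and each array left out. Some genes of the lists are counted but not reported singly here.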

Additional observations from a re-analysis of the deposited data

How the results depend on the processing

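Over 15 alternatives the median difference of the 8 cholesterol genes stayed between 0.72 and 1.604. Sqle, Fdps, Fdft1, Idi1, Hmgcs1 and Cyp51 kept their direction in each. Several alternatives could not change these differences: the second table, clusters with several names, means over clusters, only expressed clusters and the trended robust prior. The authors' deposited averages, which are not among the alternatives, put Hmgcs1 lower under anti-PD-1, by -0.16. No cholesterol gene passed the adjusted threshold in any alternative. The number of all genes that passed by limma was 1 with all arrays, 0 after median centring, after quantile normalization and with the replicate block, and between 0 and 4 with 1 array left out. At an unadjusted p under 0.05 the counts were 2051 with all arrays, 2016 after median centring, 2009 after quantile normalization, 696 with the replicate block and 1051 to 3164 with 1 array left out. With 1 array left out, 2 to 5 of the 8 genes were higher at an unadjusted p under 0.05 by limma. Between 0 and 1 were lower. The 5 were reached without control replicate 2, where 3164 of all 21154 genes passed that threshold in either direction. The lower gene was Insig1 without control replicate 4, where 1973 of all genes passed. The 2 remained without anti-PD-1 replicate 2 or 3, where 1595 and 1051 passed. Groups of 3 to 5 of the 8 genes did not overlap with 1 array left out. The share of all genes without overlap was not counted there, and fewer arrays are more easily set apart. In the same fits the list medians ran from 0.38 to 0.88 for mevalonate steps, 0.69 to 1.37 for squalene and sterol steps, -0.13 to 0.16 for sensing, -0.045 to 0.43 for uptake, -0.29 to 0.28 for efflux and 0.13 to 0.27 for isoprenoid branches. Differences ran from -0.17 to 0.455 for Lss, -1.61 to 0.265 for Insig1, -0.62 to 0.685 for Acat2, -0.645 to 0.33 for Pmvk, -0.018 to 0.492 for Mvd, -0.61 to 0.30 for Sc5d, -2.21 to 0.045 for Acly and -2.67 to 0.21 for Elovl6. With array weights, which gave control replicate 3 a weight of 0.341, the medians were -0.14 for sensing, -0.066 for efflux and 0.22 for isoprenoid branches, and the differences 0.045 for Insig1, 0.296 for Acat2, 0.175 for Pmvk and 0.141 for Sc5d. Quantile normalization gave 0.10 for isoprenoid branches. The causes were not tested.

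The labels share replicate numbers 2 and 3 between groups but do not say whether the numbers pair the samples. Arrays of the same number deviated from their group means with correlations of -0.196 and -0.191. These values cannot decide on pairing, because they rest on replicate numbers 2 and 3 only and include control replicate 3. With the replicate number as a block the sensing median was 0.14, and Sqle differed by 2.17, with an unadjusted p of 0.00641 by limma. For Fdps the difference was 1.685 with an unadjusted p of 0.0642, which left 2 of the 8 genes higher at that threshold.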

Other observations

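Genes of the isoprenoid branches, which take farnesyl and geranylgeranyl units away from sterol synthesis for prenylation, dolichol and ubiquinone, showed small differences. Among 12 measured genes 9 had the higher mean under anti-PD-1, as did 51.7% of all genes, and their median difference was 0.15. Without control replicate 3, 7 of the 12 were higher and the median was 0.27. With all arrays 0 genes were lower and 1 was higher at an unadjusted p under 0.05 by limma, beside 4.52% and 5.18% of all genes. That gene was Fntb, the beta subunit of protein farnesyltransferase, which read 7.88, 7.22 and 7.61 in control tumours and 8.74, 8.59 and 8.5 in anti-PD-1 tumours. Its groups did not overlap, and the difference was 1.04 ± 0.24 (SE), with a limma p of 0.00341 unadjusted and 0.506 adjusted. Leaving out single arrays kept it between 0.865 and 1.195. Pdss2, a subunit of the synthase of the ubiquinone tail, read 7.53, 7.87 and 7.99 in control tumours and 8.24, 8.25 and 8.33 in anti-PD-1 tumours, a difference of 0.48 ± 0.21 (SE) without overlap.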
